A study of Homo sapiens with 6 samples.

Results

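The transcript levels of 10 genes at the nuclear end of the Hippo pathway were examined in COV434 cells with and without reexpressed BRG1. The genes were the coactivators YAP1 and WWTR1 (the gene for TAZ), the DNA-binding partners TEAD1 to TEAD4, and the targets CYR61, CTGF, ANKRD1 and AMOTL2. They were taken by name from the pathway, by a rule without a measured threshold but with earlier results of these data known, and all 10 were found among the 19899 genes of the table. COV434 is an established ovarian cell line. The study treats it as a line of SCCOHT, a small cell cancer of the ovary that lacks the protein BRG1, the SWI/SNF chromatin remodeling ATPase encoded by SMARCA4. All samples came from parental COV434 cells that received pBABE-puro, a plasmid for puromycin resistance, 3 of them together with the plasmid pCDNA3-neo (Control) and 3 with the BRG1 plasmid PBJ5-BRG1 (BRG1). Puromycin at 2 to 3 µg/ml was added 24 hours after transfection and was kept on for 3 days, so that the surviving cells are a transiently transfected, selected population and not a clone. Poly(A) RNA was sequenced without keeping strand. The samples held between 29699741 and 63613710 estimated counts, and BRG1 replicate 3 was the shallowest. Levels below are normalised counts, which are estimated counts divided by a size factor for each sample.

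In the Hippo pathway the kinases STK3 and STK4 activate the kinases LATS1 and LATS2, which phosphorylate YAP and TAZ and keep them out of the nucleus. Unphosphorylated YAP and TAZ enter the nucleus, bind TEAD factors and raise transcription of genes for secreted matrix proteins, cytoskeletal proteins and inhibitors of the pathway itself. Because this control acts on phosphorylation and location of the proteins, transcript levels of YAP1, WWTR1 and the TEADs do not by themselves measure pathway activity, and in bulk RNA a change in the number of responding cells and a change in RNA per cell cannot be told apart.

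The DNA just upstream of 4 of the genes is shown because these windows hold the core letters of the TEAD motif. RefSeq windows of GRCh38.p14, cut to the 250 bases before each listed transcript start, were at hand for 7 of the 10 genes and were searched for GGAATG on both strands (CATTCC on the printed one), for the AP-1 motif TGANTCA, and for the CArG box bound by serum response factor. The 3 searches share no letters in the printed windows. Each line reads 5′ to 3′ toward the gene's start, with motif letters in capitals.
CTGF, chr6:131951373-131951622, minus strand: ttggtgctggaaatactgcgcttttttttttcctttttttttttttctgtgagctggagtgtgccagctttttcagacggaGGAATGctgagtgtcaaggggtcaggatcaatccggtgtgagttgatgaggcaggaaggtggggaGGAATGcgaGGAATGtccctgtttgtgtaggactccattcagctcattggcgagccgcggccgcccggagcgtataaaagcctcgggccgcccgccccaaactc
ANKRD1, chr10:90921088-90921337, minus strand: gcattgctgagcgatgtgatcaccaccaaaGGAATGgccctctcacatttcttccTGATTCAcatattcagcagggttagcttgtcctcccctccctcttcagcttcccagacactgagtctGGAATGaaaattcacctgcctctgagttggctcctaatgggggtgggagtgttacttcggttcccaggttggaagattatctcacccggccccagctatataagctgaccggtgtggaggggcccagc
AMOTL2, chr3:134374448-134374697, minus strand: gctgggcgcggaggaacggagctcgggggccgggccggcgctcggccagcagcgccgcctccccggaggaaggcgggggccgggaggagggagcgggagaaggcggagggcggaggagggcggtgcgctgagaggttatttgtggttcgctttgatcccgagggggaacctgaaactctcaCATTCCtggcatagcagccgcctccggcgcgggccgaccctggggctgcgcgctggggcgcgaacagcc
YAP1, chr11:102110197-102110446, plus strand: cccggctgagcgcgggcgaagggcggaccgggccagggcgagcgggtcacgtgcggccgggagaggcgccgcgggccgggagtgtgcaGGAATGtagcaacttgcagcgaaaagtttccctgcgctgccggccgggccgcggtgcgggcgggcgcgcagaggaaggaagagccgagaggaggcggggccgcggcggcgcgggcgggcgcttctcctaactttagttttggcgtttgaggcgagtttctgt

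CTGF carried 3 copies of GGAATG, which began 169, 104 and 95 bases before the start. ANKRD1 carried 2 copies, at 220 and 128 bases, and between them the only AP-1 match among these genes, TGATTCA at 195 bases. AMOTL2 carried 1 copy in reverse orientation at 69 bases, in 1 of its 2 windows, and YAP1 carried 1 at 162 bases. The windows of WWTR1, TEAD2 and TEAD3 held none of the 3 motifs, and windows of CYR61, TEAD1 and TEAD4 were not analysed here. The 7 genes had 10 windows in all, of which 4 held the TEAD letters. Of 35116 windows of the same length, 11.9% held the TEAD letters, 6.57% the AP-1 letters and 1.16% a CArG box. A match is a description of the letters and not a measured binding site.

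The transfected gene was checked first. SMARCA4 had 1439, 1676 and 1538 normalised counts in Control replicates 1 to 3 and 108655, 79075 and 78589 in BRG1 replicates 1 to 3, with plasmid transcripts included (log2 fold change 5.84 with a standard error, SE, of 0.18, DESeq2 adjusted p = 5.43e-216). The groups did not overlap, and BRG1 replicates 2 and 3 were close to each other. SMARCA2, the other ATPase gene, stayed between 3.79 and 35.7 counts in all samples.

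With BRG1, 3 of the 4 targets rose in the DESeq2 fit over all genes without a covariate, and none of the 6 coactivator and TEAD genes was called. CTGF, ANKRD1 and AMOTL2 passed an adjusted p of 0.05 in DESeq2 and in edgeR, and 0 genes were called lower. In DESeq2, 11.0% of the 15991 genes tested were called higher and 1.84% lower, and in edgeR 9.57% and 1.02% of 14246. Unadjusted p-values were under 0.05 for the same 3 genes only, in DESeq2 and in edgeR alike. The median log2 fold change of the 10 genes was 0.35, against -0.01 over all genes tested. Of the 10, 8 were above 0, as were 48.3% of all genes tested, and only the same 3 of them were called.

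Samples with the same replicate number deviated together from their group means across the transcriptome, so each comparison was also fitted with the replicate number as a block. In that fit DESeq2 called 6 of the 10 genes higher, adding CYR61, WWTR1 and TEAD1, and called TEAD2 lower. The block raised the background as well, to 13.4% higher and 6.62% lower in DESeq2, and to 13.7% and 5.68% in edgeR. With the block edgeR called 5 genes higher, among them CYR61 and TEAD1 but not WWTR1, and did not call TEAD2 (adjusted p = 0.082).

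**Figure D1:**
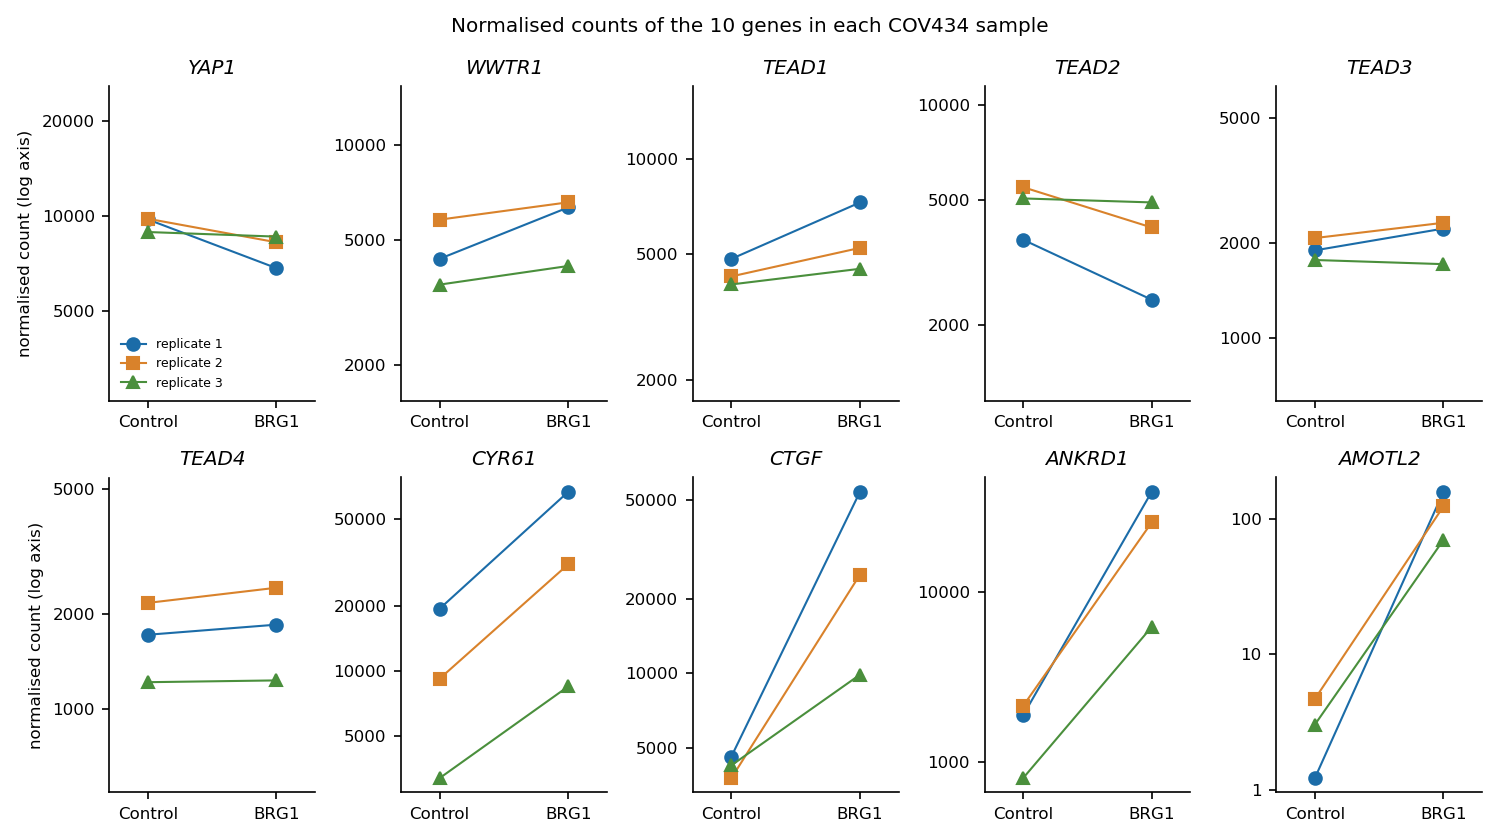
Normalised counts (log axis, scaled separately in each panel) of the 10 genes, with Control at the left and BRG1 at the right of each panel and a line joining samples with the same replicate number. The 4 target genes rise on all 3 lines, from 3211 to 19375 up to 8494 to 66981 for CYR61, while the lines of the coactivator and TEAD genes move far less.

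The coactivators were abundant in both groups. YAP1 (chr11:102110447-102233424, plus strand, GRCh38) had 9761, 9812 and 8904 normalised counts in Control and 6837, 8260 and 8611 in BRG1 replicates 1 to 3. All 3 BRG1 samples lay below all 3 Control samples, as in 9.92% of the genes tested. At a log2 fold change of -0.26 ± 0.15 (SE) the gene was not called (adjusted p = 0.315 in DESeq2, 0.28 in edgeR), nor with the block (0.0975 and 0.123). The 95% interval of the log2 fold change reached from -0.56 to 0.03. With the block and without number 3 it was -0.38, with an adjusted p of 0.0306 in DESeq2.

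WWTR1 (chr3:149517235-149736714, minus strand) had 4362, 5808 and 3612 normalised counts in Control and 6351, 6593 and 4139 in BRG1 samples. The groups overlapped, with replicate 3 the lowest in each, yet every BRG1 sample exceeded the Control sample of its number, by 1.46, 1.14 and 1.15 times. Its log2 fold change of 0.31 (SE 0.26, DESeq2 adjusted p = 0.595) was within the spread between samples, and with the block it was 0.31 ± 0.12 (SE), with an adjusted p of 0.0456 in DESeq2 and 0.0689 in edgeR. Per kilobase of exon, YAP1 stood at 1500 ± 80.9 in Control and 1250 ± 149 in BRG1 samples and WWTR1 at 550 ± 134 and 682 ± 162 (SD, n = 3). YAP1 thus made up 74.8%, 69.1% and 76.5% of the pair's summed level per kilobase in Control and 58.8%, 62.4% and 73.4% in BRG1 replicates 1 to 3. The share was lower with BRG1 within each number, but the groups overlapped, and the summed level was 2054 ± 204 in Control and 1934 ± 142 with BRG1 (SD, n = 3).

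Among the TEAD factors, the proteins that bring YAP and TAZ to DNA, no gene was called without the block. TEAD1 (chr11:12674421-12944737, plus strand) had 4834, 4252 and 4010 normalised counts in Control and 7301, 5238 and 4496 in BRG1 samples, and only BRG1 replicate 3 fell inside the Control range. Its log2 fold change was 0.38 (SE 0.22, DESeq2 adjusted p = 0.334), and with the block 0.35 with an adjusted p of 0.0205 in DESeq2 and 0.0467 in edgeR. TEAD1 was thus higher with BRG1 in both blocked fits.

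TEAD2 (chr19:49340595-49362457, minus strand) was the TEAD gene with the opposite sign. It had 3737, 5487 and 5054 normalised counts in Control and 2410, 4087 and 4909 in BRG1 samples, which overlapped. The log2 fold change was -0.32 (SE 0.29, DESeq2 adjusted p = 0.631), and with the block -0.37 with an adjusted p of 0.0419 in DESeq2 and 0.082 in edgeR. Within replicate numbers the fold was 0.645, 0.745 and 0.971, so that number 3 showed almost no difference. Exons of CD37, on the other strand, cover 10.7% of the exonic bases of TEAD2, and without strand the reads of both cannot be told apart there.

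TEAD3 (chr6:35473597-35497079, minus strand) and TEAD4 (chr12:2959330-3040676, plus strand) were called in none of the 4 fits. TEAD3 ranged from 1771 to 2079 normalised counts in Control and from 1718 to 2325 in BRG1 samples. Its 95% interval for the log2 fold change was -0.22 to 0.47 around 0.13 in DESeq2. TEAD4 ranged from 1218 to 2175 and from 1234 to 2430, with an interval of -0.49 to 0.71 around 0.11. With the block, the intervals were -0.12 to 0.35 for TEAD3 and -0.13 to 0.32 for TEAD4. Both genes were lowest in replicate 3 of each group.

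On the scale of normalised counts per kilobase of exon, the order of levels in Control was TEAD2 (1600 ± 306), TEAD4 (750 ± 210), TEAD3 (629 ± 50.7) and TEAD1 (408 ± 39.6; SD, n = 3 each). TEAD4 and TEAD3 overlapped, whereas every Control sample had more TEAD2 than TEAD4 and more TEAD3 than TEAD1. In BRG1 samples the order was the same, at 1280 ± 427, 809 ± 263, 686 ± 107 and 531 ± 136, and the ranges of all neighbours in it overlapped. Within each BRG1 sample TEAD3 still exceeded TEAD1, at 731 against 682, 763 against 490 and 563 against 420. In BRG1 replicate 1 TEAD2 did not exceed TEAD4, at 809 against 815. The share of TEAD2 in the summed TEAD level was 40.6%, 47.5% and 53.2% in Control and 26.6%, 37.1% and 51.9% in BRG1 replicates 1 to 3. TEAD1 held 14.6%, 10.3% and 11.8% in Control and 22.5%, 13.3% and 13.2% in BRG1 samples. The share of TEAD2 was lower and that of TEAD1 higher with BRG1 in all 3 numbers, with overlapping groups, and the summed TEAD level differed by less than the spread between samples, at 3383 ± 430 in Control and 3301 ± 345 with BRG1 (SD, n = 3).

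**Figure D2:**
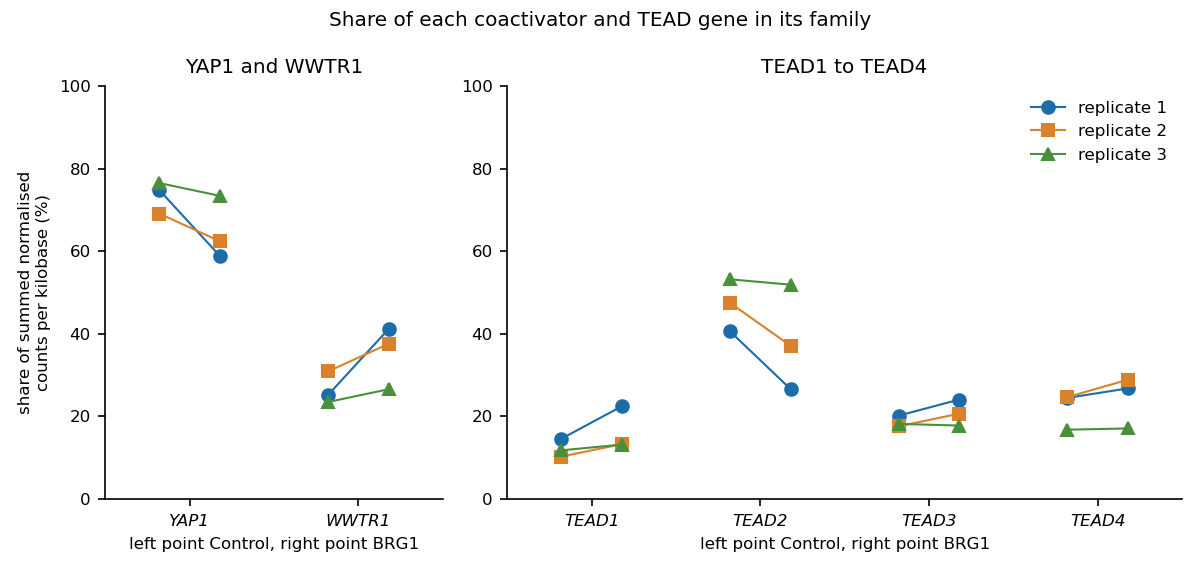
Share (%) of each gene in the summed normalised counts per kilobase of its family, for the coactivators (left) and the TEAD factors (right), with Control and BRG1 samples of the same replicate number joined by a line. YAP1 and TEAD2 hold the largest shares in Control, and their shares are lower in BRG1 samples in all 3 numbers, least in number 3.

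The targets responded on another scale. CTGF (CCN2; chr6:131948176-131951372, minus strand), whose promoter above held 3 copies of the TEAD letters, encodes connective tissue growth factor, a secreted matrix protein. It had 4608, 3770 and 4245 normalised counts in Control and 53991, 24991 and 9863 in BRG1 replicates 1 to 3. Control samples were tightly grouped, BRG1 samples were spread by 5.47 times, and the groups did not overlap. Means of 4208 ± 421 in Control and 29615 ± 22425 with BRG1 (SD, n = 3) gave 2.82 ± 0.47 (SE) on the log2 scale, with an adjusted p of 5.42e-08 in DESeq2 and 0.0116 in edgeR. BRG1 replicate 1 carried much of the size, and without it the log2 fold change was 2.05, with an adjusted p of 2.33e-07 in DESeq2. Exons of the antisense gene LINC01013 cover 11.9% of the exonic bases of CTGF.

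CYR61 (CCN1; chr1:85580761-85584589, plus strand), a secreted protein of the same CCN family, varied widely among Control samples. Its normalised counts were 19375, 9224 and 3211 in Control and 66981, 31041 and 8494 in BRG1 replicates 1 to 3, and the groups overlapped. Across Control samples the highest value was 6.03 times the lowest. That spread was wider than in 99.8% of the 7558 genes with a mean of at least 1000 over all 6 samples. The median of these genes was 1.23. Across Control samples CTGF spread by 1.22 times, and ANKRD1 by 2.66 times, wider than in 98.9% of these genes. Without the block CYR61 was not called, at 1.74 ± 0.94 (SE) on the log2 scale and an adjusted p of 0.288 in DESeq2 and 0.286 in edgeR. Within replicate numbers the fold was 3.46, 3.37 and 2.65, the most even of the 4 targets. With the block the gene rose by 1.65 ± 0.11 (SE) on the log2 scale, with an adjusted p of 1.89e-47 in DESeq2 and 3.76e-05 in edgeR. The call on CYR61 therefore rests on the pairing of the samples by number.

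ANKRD1 (chr10:90912096-90921087, minus strand) encodes a muscle ankyrin repeat protein that is a common readout of YAP and TAZ. Its normalised counts were 1881, 2136 and 803 in Control and 38904, 25690 and 6230 in BRG1 replicates 1 to 3. Replicate 3 was the lowest in each group, and the groups did not overlap. The mean was 1607 ± 708 in Control and 23608 ± 16436 with BRG1 (SD, n = 3), which gave 3.88 ± 0.79 (SE) on the log2 scale and an adjusted p of 1.59e-05 in DESeq2 and 0.00814 in edgeR. Within replicate numbers the fold was 20.7, 12.0 and 7.76.

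AMOTL2 (chr3:134355347-134375479, minus strand), an angiomotin-like protein that binds YAP and is also a target of it, was nearly absent in Control, at 1.22, 4.69 and 3.03 normalised counts. BRG1 replicates 1 to 3 held 159, 124 and 70.1, all far above Control. AMOTL2 rose by 5.30 ± 0.67 (SE) on the log2 scale, with an adjusted p of 6.82e-14 in DESeq2 and 0.000747 in edgeR. As the Control samples together held 9 reads by estimate and the BRG1 samples 415, the ratio of depth-scaled counts was 42.4, with an exact 95% interval of 22.1 to 93.5 that covers counting error only. AMOTL2 thus had the largest fold and by far the lowest level of the 10 genes.

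Every BRG1 sample lay above every Control sample for these 3 targets, as in 16.7% of the genes tested. Each of the 4 targets was highest in BRG1 replicate 1 and lowest in BRG1 replicate 3. SMARCA4 had the same order, at 108655, 79075 and 78589 in BRG1 replicates 1 to 3, with replicates 2 and 3 close to each other. A link between its level and that of the targets was not tested. On the scale of counts per kilobase, Control levels ran from CYR61 (2870 ± 2210) through CTGF (1800 ± 180) and ANKRD1 (898 ± 396) to AMOTL2 (0.46 ± 0.268; SD, n = 3 each). CYR61 overlapped both CTGF and ANKRD1 there, CTGF exceeded ANKRD1 in every Control sample, and AMOTL2 was below all of them. In BRG1 samples ANKRD1 (13200 ± 9180), CTGF (12700 ± 9590) and CYR61 (9600 ± 7980) overlapped, and AMOTL2 stood at 18.1 ± 6.9 (SD, n = 3 each).

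**Figure D3:**
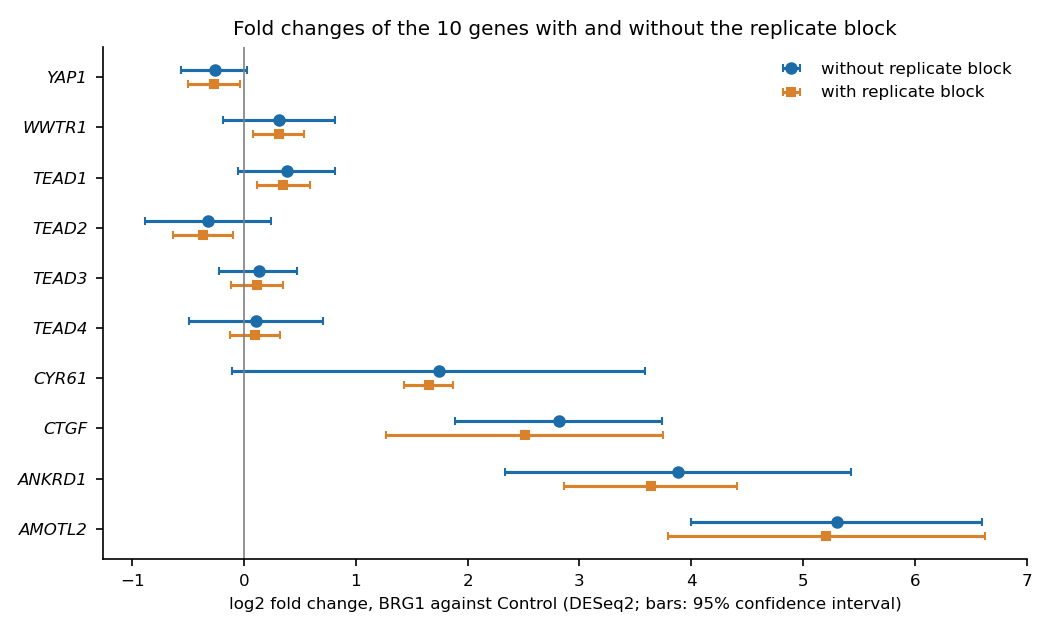
Log2 fold change of BRG1 against Control for the 10 genes from DESeq2, without (circles) and with (squares) the replicate number as a block, with 95% confidence intervals. For CYR61 the interval reaches below 0 without the block (-0.11 to 3.59) and narrows to 1.43 to 1.87 with it, and the intervals of the TEAD and coactivator genes stay within 0.89 of 0.

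The genes whose levels followed the targets most closely over the 6 samples were taken among genes with a mean of at least 100, by Pearson's r of log2 normalised counts, as a description without a test. For ANKRD1 they were ANGPTL4 (r = 0.9995), NUAK1 (0.9991) and DDAH1 (0.9986), and for CTGF they were COLEC12 (0.9974), CAPN2 (0.9972) and ITGA6 (0.9969). For AMOTL2 they were MGLL (0.9994), GALNT18 (0.9991) and BST2 (0.9990). All 9 rose with BRG1, by 1.04 for CAPN2 to 9.58 for BST2 on the log2 scale of DESeq2. CYR61 differed in that its closest genes, XRCC4 (0.9970), LTB4R (0.9926) and RPS6KC1 (0.9912), had log2 fold changes of only 0.33, 0.65 and 0.23 and were not called. Its counterparts over 0.99 numbered 4, against 37 for CTGF, 41 for ANKRD1 and 52 for AMOTL2. The points share libraries and the difference between groups, so the choice itself favoured genes that rose where the target rose without overlap.

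The other genes of the pathway were read from the same fits. Of 18 further TEAD targets, 10 were called higher and 0 lower in DESeq2 and in edgeR, and their median log2 fold change was 1.10, against -0.01 over all genes tested. LATS2 and PTPN14 stand in this list and in an upstream list. Over all genes tested, 11.0% were called higher in DESeq2 and 9.57% in edgeR. With the block 13 of the 18 were called higher in DESeq2 and 11 in edgeR, against 13.4% and 13.7% of all genes. NT5E, the ecto-5′-nucleotidase CD73, rose from between 17.4 and 26.8 to between 1415 and 5544 normalised counts (log2 fold change 7.21, DESeq2 adjusted p = 1.62e-52). F3, tissue factor, was at 28.0, 14.1 and 7.57 in Control and at 1943, 1019 and 258 in BRG1 samples (6.03 on the log2 scale, and 5.30 without BRG1 replicate 1). IGFBP3, a carrier of insulin-like growth factors, rose by 5.85 and NUAK2, a kinase of the AMPK family, by 4.73 on the log2 scale. NUAK2 stood at 3.68 without BRG1 replicate 1, and limma-voom did not call it (adjusted p = 0.0724). MYOF, a ferlin membrane protein, rose by 2.94 (2.36 without BRG1 replicate 1), the membrane protein CRIM1 by 1.61, the secreted protein CCDC80 by 1.53 and the receptor kinase AXL by 1.47. ASAP1 and TGFB2, named after their values were seen because the naming rule leaves them out, completed the 10. The remaining 8 targets had log2 fold changes between 0.01 for PTPN14 and 0.74 for ARHGEF17. TEAD letters were found in 5 of the 14 windows at hand for this list and in 6 of 17 for the other upstream regulators described below, against 11.9% of all windows.

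**Figure D4:**
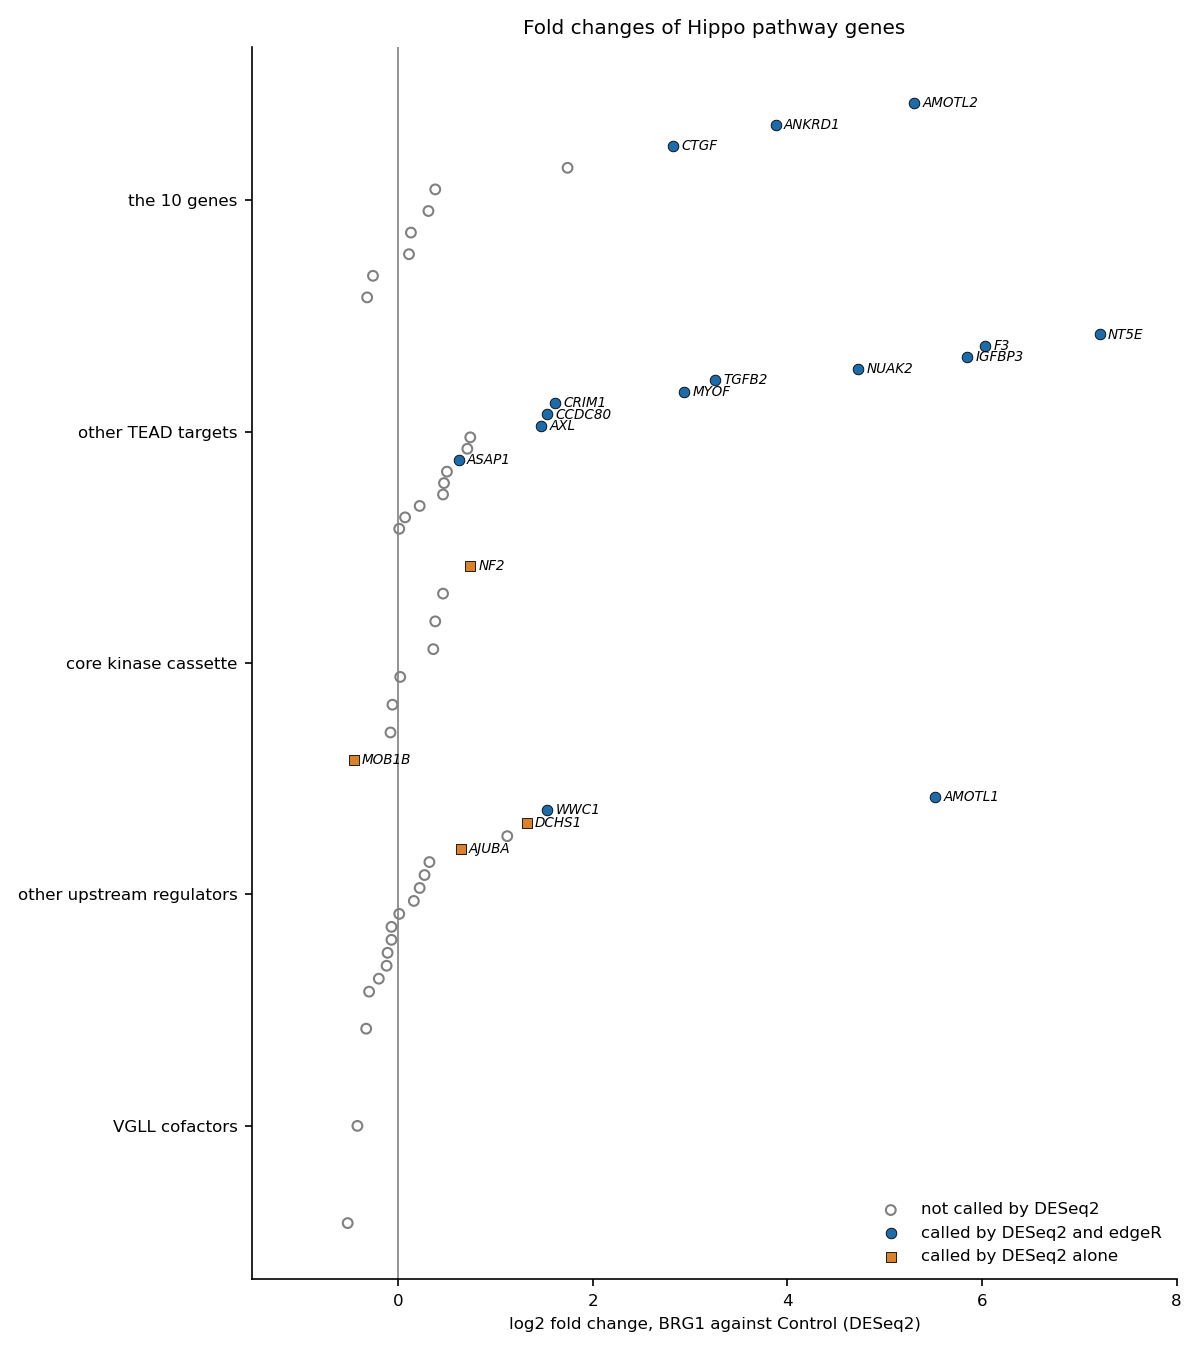
Log2 fold change of BRG1 against Control (DESeq2) for the 10 genes and 4 further lists of Hippo pathway genes, 1 point per gene, spread vertically within a list in order of fold change. Filled points, labelled by gene, were called at an adjusted p under 0.05, with 10 of the 18 further targets called higher and, of the 8 kinase genes, 1 higher and 1 lower (squares, not called by edgeR).

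Upstream, the 8 core kinase genes had a median log2 fold change of 0.19. Of STK3, STK4, SAV1, LATS1, LATS2, MOB1A, MOB1B and NF2, DESeq2 called NF2 higher and MOB1B lower, and edgeR called neither. With 11.0% of all genes tested called higher in DESeq2, 1 higher call among 8 genes is about the background. Only 1.84% were called lower, so the lower call is above that share, on 1 gene. With the block DESeq2 called 3 of the 8 higher and 1 lower, and edgeR 2 and 1. The shares over all genes were then 13.4% and 6.62% in DESeq2 and 13.7% and 5.68% in edgeR. NF2, the gene for merlin, which activates the kinases at the membrane, had 3885, 3402 and 3354 normalised counts in Control and 8135, 5478 and 4170 in BRG1 samples. The groups did not overlap (log2 fold change 0.74, adjusted p = 0.0325 in DESeq2 and 0.0913 in edgeR), and with the block the adjusted p was 7.5e-05 and 0.0111. MOB1B, a cofactor of LATS kinases, had 1905, 1957 and 1903 counts in Control and 1462, 1557 and 1155 in BRG1 samples (-0.46, 0.0408 and 0.0744), and with the block the adjusted p was 0.00412 and 0.0148. Each of the calls on NF2 and MOB1B was kept in 1 of the 6 fits that leave out a sample. SAV1, the scaffold of STK3 and STK4, and LATS2 were not called without the block. With it they stood at 0.36 and 0.38 on the log2 scale, with adjusted p-values of 0.014 and 0.037 in DESeq2 and 0.0301 and 0.0657 in edgeR. STK3, STK4, LATS1 and MOB1A had log2 fold changes of 0.36, -0.08, -0.06 and 0.02 and were not called in any of these fits. None of the 10 windows of this list held the TEAD letters, which 11.9% of all windows held.

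Of 16 other upstream regulators, 4 were called higher in DESeq2, 2 of them also in edgeR, and 0 were called lower, with a median log2 fold change of 0.19. The shares called higher among all genes tested were 11.0% in DESeq2 and 9.57% in edgeR, so the edgeR count is near the background. AMOTL1, the paralog of AMOTL2, had 26.8, 8.21 and 25.0 normalised counts in Control and 1102, 1173 and 506 in BRG1 samples (log2 fold change 5.52, adjusted p = 2.91e-33 in DESeq2 and 0.000415 in edgeR). The third family member, AMOT, did not follow, at 337, 314 and 526 in Control and 422, 358 and 345 in BRG1 samples (-0.07, DESeq2 adjusted p = 0.946). On the scale of counts per kilobase AMOT made up 94.9% ± 1.44 of the family in Control and 30.1% ± 8.54 in BRG1 samples, AMOTL1 4.09% ± 2.09 and 58.3% ± 8.14, and AMOTL2 1.02% ± 0.764 and 11.6% ± 1.53 (SD, n = 3), with no overlap between groups for any of the 3. WWC1, the gene for KIBRA, rose by 1.53 on the log2 scale (adjusted p = 2.43e-06 in DESeq2 and 0.00781 in edgeR). DCHS1, an atypical cadherin, and AJUBA, a LIM protein that binds LATS kinases, were called higher in DESeq2 at 1.32 and 0.64 (adjusted p = 0.0158 and 0.0139) but not in edgeR (0.0721 and 0.0567). With the block AJUBA was called in both tools and DCHS1 in edgeR alone, and each was kept in 1 of the 6 fits that leave out a sample. In all, 5 of the 16 were called higher with the block in each tool, against 13.4% of all genes in DESeq2 and 13.7% in edgeR. FRMD6 was among them (0.99 on the log2 scale, adjusted p = 4.45e-06 in DESeq2 and 0.0051 in edgeR).

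The VGLL genes encode cofactors that bind TEAD factors, VGLL4 in competition with YAP. VGLL1 had no counts in any sample. VGLL2 ranged from 22176 to 29304 normalised counts in Control and from 11706 to 24220 in BRG1 samples, VGLL3 from 24338 to 34762 and from 17028 to 21378, and VGLL4 from 14019 to 16622 and from 10635 to 13421. VGLL3 and VGLL4 lay lower in every BRG1 sample than in every Control sample, as did 9.92% of the genes tested, and neither was called by DESeq2 or edgeR without the block, although with TMM factors in place of size factors DESeq2 called VGLL3 lower (adjusted p = 0.0456). Their log2 fold changes were -0.42, -0.52 and -0.33, with DESeq2 adjusted p-values of 0.47, 0.0615 and 0.169. With the block DESeq2 called all 3 lower (0.00928, 0.000154 and 0.0124), and edgeR called VGLL3 alone (0.0154). Over all genes tested with the block, 6.62% were called lower in DESeq2 and 5.68% in edgeR. Per kilobase VGLL2 had 11800 ± 1640 in Control and VGLL3 2210 ± 448, against 3383 ± 430 for the 4 TEAD genes summed (SD, n = 3).

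The closest relatives of the targets were read as well. In the CCN family, NOV had between 41.3 and 61.3 normalised counts in all samples, and WISP2 and WISP3 at most 10.6. WISP1, named after its value was seen, had 0 counts in Control and 6.53, 8.31 and 26.9 in BRG1 samples, at least 11.4-fold higher when 3 counts over the Control group are taken as the floor (DESeq2 adjusted p = 0.00253, too low to be tested by edgeR). ANKRD2, which like ANKRD1 encodes a muscle ankyrin repeat protein, had 1 estimated read in Control and 122 in BRG1 samples, a ratio of 112 with an exact 95% interval of 19.8 to 4470 for counting error only (DESeq2 adjusted p = 0.000262, also untested by edgeR). BRG1 replicate 1 held most of these reads, with 63.8 normalised counts against 23.3 and 8.96 in replicates 2 and 3, and the log2 fold change of 6.46 ranged from 5.47 without that sample to 7.54 without Control replicate 1. ANKRD23, the third of these, had between 175 and 286 counts and was not called, and 81.5% of its exonic bases lie in exons of ANKRD39 and CNNM3.

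Markers of other cell types were read beside these results. Of 5 endothelial markers, CDH5, VWF and TIE1 were called higher in DESeq2, where 11.0% of all genes tested were, and PECAM1 and EGFL7 were not. The summed level of the 5 ranged from 940 to 1174 normalised counts in Control and from 4231 to 4938 in BRG1 samples. EGFL7 made up most of the Control sum, at 870 to 1071 counts there and 806 to 973 with BRG1, and VWF most of the rise. VWF alone went from between 25.6 and 81.8 to between 3224 and 3657. In BRG1 replicates 1 to 3 VWF had 3657, 3224 and 3613 counts, CDH5 272, 114 and 43.3, and TIE1 82.7, 74.8 and 73.1. CDH5 and TIE1 were lowest in replicate 3, as were the 4 Hippo targets, and VWF was lowest in replicate 2. Of 8 granulosa cell markers CYP19A1 and INHBB were called higher in DESeq2, beside the same 11.0% of all genes. FOXL2, FSHR and NR5A1 had at most 3.32 counts in any sample. AMH (227 to 455), INHA (35.7 to 47.5) and HSD17B1 (627 to 884) had counts in every sample and were not called. Exons of the antisense gene HSD17B1-AS1 cover 80.9% of the exonic bases of HSD17B1, where reads of both cannot be told apart. Of the leukocyte markers PTPRC, CD3E, CD14 and ITGAM none was called, and CD3E and ITGAM had at most 2.90 counts while PTPRC had between 336 and 722 in all samples. The part of these genes in the rise of the targets was not tested.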

How the data were processed

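RNA-seq of 3 Control and 3 BRG1 samples of COV434 cells was used. Per the study's methods and the submitters' processing notes, the authors checked reads with FastQC 0.11.5, aligned them with STAR 2.5.3a (hg38, GENCODE release 24), quantified transcripts with salmon 0.8.2 with gene sums from tximport. Estimated counts for each gene were deposited, which the authors had scaled for transcript length and library size. Differences in transcript length between samples are thereby removed, and a model divides ambiguous reads among genes. Exons shared with antisense genes add to a gene's value, since the libraries keep no strand. Beside the genes named above, such exons cover 10.1% of the exonic bases of YAP1, 9.1% of WWTR1, 31.9% of SAV1 and 23.8% of VGLL4. Nothing in the labels ties a sample to a separate culture, so p-values measure the spread between these samples, which may be technical.

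The estimated counts were rounded. All 19899 genes were fitted with DESeq2 1.42.0 in R 4.3.3, a tool named in the study's methods (Wald test, median-ratio size factors, independent filtering, no covariate). A gene was called at a Benjamini-Hochberg adjusted p under 0.05 over all genes tested. edgeR 4.0.16 (quasi-likelihood test) and limma 3.58.1 (voom) with TMM factors, other filters, a threshold of 0.01, leaving out each sample, and the replicate number as a block were alternatives. Deviations from group means of same-numbered samples correlated at 0.52, 0.52 and 0.61 over 11686 genes, against -0.52 to 0.07 for other pairs, so the numbers were taken to pair the samples. The labels give no reason for the pairing.

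Tested on simulated data with 200 changed genes, 26.1% of the DESeq2 calls and 6.08% of the edgeR calls were false (29.4% and 7.87% with the block). With 2000 changed genes the shares were 6.87% and 3.56% (7.01% and 3.07%). Calls by edgeR are therefore given beside those of DESeq2. The simulated samples were drawn independently and held no deviation shared by replicate number. The shares with the block therefore do not measure false calls in samples paired as these are.

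The 10 genes and the pathway and marker lists were chosen with earlier results of these data known. Named were the 10 genes, the core kinase and VGLL genes, up to 8 called genes of each other list with a mean of at least 10 normalised counts, and the 3 genes most like each target. Coordinates and exon lengths are from GENCODE release 44 (GRCh38), the authors' build but a later release, and levels per kilobase use the union of exons. The older names CYR61 and CTGF were matched through RefSeq synonyms. Protein sequences were not analysed here, and 1 leukocyte marker is not reported here.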

Additional observations from a re-analysis of the deposited data

How the results depend on the processing

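CTGF, ANKRD1 and AMOTL2 were called higher by DESeq2, edgeR and limma-voom, with TMM factors, with a low-count filter, without independent filtering, at an adjusted p of 0.01 and without each sample, over which their log2 fold changes ranged from 2.05 to 3.23, 3.31 to 4.33 and 4.98 to 5.69. With the replicate block, 6 of the 10 genes were called higher and 1 lower in DESeq2, 5 and 0 in edgeR, and 5 and 2 in DESeq2 without number 3, a fit added after seeing the data, in which YAP1 (-0.38) and TEAD2 (-0.53) were the lower calls. TEAD4 turned negative without BRG1 replicate 2 (-0.14) and without Control replicate 3 (-0.08) but was not called there, and between 7 and 8 of the 10 genes were above 0. Leave-one-out values of CYR61, uncalled each time, ranged from 0.90 to 2.51.

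Of all genes, 294 were called lower, against 146 in edgeR, 169 in limma-voom, 130 at an adjusted p of 0.01, 1035 with the block, 809 with the block in edgeR and 709 with the block without number 3. Without each replicate this count ranged from 117 to 596, lowest without BRG1 replicate 2 and highest without BRG1 replicate 3, and the higher calls from 1350 to 1974. Among the 8 core kinase genes, 1 was called higher, against 0 in edgeR, limma-voom and at 0.01, 3 with the block, 2 with the block in edgeR and 2 with the block without number 3. The 1 lower call was 0 in edgeR, limma-voom, at 0.01 and with the block without number 3. Over the leave-one-out fits both counts ranged from 0 to 1. Of the other upstream regulators 4 were called higher, against 2 in edgeR, limma-voom and at 0.01, and 2 to 4 without each sample. Of the VGLL genes 0 were called lower, against 1 with TMM factors, 3 with the block, 1 with the block in edgeR and 3 with the block without number 3. Beside these list counts, the block fits called 13.4% of all genes higher and 6.62% lower in DESeq2, and 13.7% and 5.68% in edgeR. With the longest transcript in place of the exon union, WWTR1 held 33.8% of the coactivator level in Control and 43.3% in BRG1 samples, against 26.5% and 35.2%. The block changed no call among CTGF, ANKRD1, AMOTL2, TEAD3 and TEAD4. The cause was not tested.

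YAP1, WWTR1, TEAD1 and TEAD2 were called in fits with the block and in none of the others run. AMOTL2, WISP1 and ANKRD2 rest on few reads in Control, which limits their folds.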
